A study of Homo sapiens with 24 samples.

Results

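Myeloperoxidase and its companions are products of granulocyte and monocyte precursors, and a set of 9 genes of this kind (MPO, CTSG, LYZ, VCAN, ELANE, AZU1, PRTN3, CEBPA and CD33) was followed here in 2 lines grown from acute leukemias of B cell precursors. The genes were chosen by their expression outside their usual lineage in either line and by its loss with JQ1, on these same arrays, so all their values are given as a description, without p-values. For each gene the core row carrying it as the only symbol was taken. Of the 9 genes 8 have such a row, 1 each, among 14232 genes in all, and CD33 was not analysed here. All 8 are shown, since low values were not filtered out.

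The groups were MUTZ-5 cells with JQ1, MUTZ-5 cells with DMSO, MHH-CALL4 cells with JQ1 and MHH-CALL4 cells with DMSO, with 3 arrays each and 12 in all. MUTZ-5 and MHH-CALL4 are established human lines, and the labels give no genotype for them. JQ1 is a small molecule inhibitor of the BET family of bromodomain proteins, which bind acetylated histones and help transcription start and proceed, and DMSO is the solvent it was given in. Exposure lasted 8 hours, at 500 nM for JQ1. Each group is therefore 1 line grown in culture, and whether its 3 samples were separate cultures is not stated, so the spread between them may be technical.

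Azurophil granules are the first granules that a neutrophil precursor, the promyelocyte, lays down. They carry the peroxidase MPO, which makes hypochlorous acid, the serine proteases cathepsin G (CTSG), neutrophil elastase (ELANE) and proteinase 3 (PRTN3), the enzymatically inactive relative azurocidin (AZU1), and lysozyme (LYZ), which cuts bacterial cell walls and is also a product of monocytes. CEBPA is a transcription factor required for granulocyte development, and it acts on granule genes together with PU.1 (SPI1), RUNX1 and MYB. VCAN encodes versican, a large chondroitin sulfate proteoglycan of the matrix that monocytes also make. B cell precursors normally silence this programme while PAX5 and EBF1 hold the B lineage.

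The sequences around the transcription start of 3 protease-family genes are shown because these genes behaved differently on the arrays. CTSG was lower under JQ1 in MHH-CALL4, whereas PRTN3 and AZU1 were at one level in all groups. Each window runs 5′ to 3′ on the gene's strand from 250 bases before to 50 bases after the start (RefSeq, GRCh38.p14), at chr14:24576201-24576500 on the minus strand for CTSG, chr19:840749-841048 on the plus strand for PRTN3 and chr19:827587-827886 on the plus strand for AZU1. Capitals mark matches, on either strand, to short forms of the sites of myeloid factors, which are GAGGAA for PU.1, TTGCNNAA for C/EBP proteins, TGTGGT for RUNX and AACNGNC for MYB.
CTSG: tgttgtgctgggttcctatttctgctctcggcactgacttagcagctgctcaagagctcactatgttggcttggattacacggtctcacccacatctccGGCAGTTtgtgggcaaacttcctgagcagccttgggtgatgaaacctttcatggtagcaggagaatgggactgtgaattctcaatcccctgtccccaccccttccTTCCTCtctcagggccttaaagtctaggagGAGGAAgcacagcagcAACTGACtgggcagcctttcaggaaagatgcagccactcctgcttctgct
PRTN3: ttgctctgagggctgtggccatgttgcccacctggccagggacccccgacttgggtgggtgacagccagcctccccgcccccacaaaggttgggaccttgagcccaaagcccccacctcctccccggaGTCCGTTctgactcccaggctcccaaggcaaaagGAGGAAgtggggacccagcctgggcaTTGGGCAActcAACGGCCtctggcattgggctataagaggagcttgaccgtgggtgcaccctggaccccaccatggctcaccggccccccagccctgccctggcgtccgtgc
AZU1: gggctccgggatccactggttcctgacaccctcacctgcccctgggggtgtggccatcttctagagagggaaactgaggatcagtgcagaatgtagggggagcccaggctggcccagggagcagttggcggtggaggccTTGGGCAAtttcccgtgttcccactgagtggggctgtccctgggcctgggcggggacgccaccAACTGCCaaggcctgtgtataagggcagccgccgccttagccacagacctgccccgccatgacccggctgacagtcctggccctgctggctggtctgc

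GAGGAA was found in CTSG, with 2 matches, and in PRTN3, with 1. The C/EBP form was found in PRTN3 and AZU1 and not in CTSG, the MYB form was found in all 3, and the RUNX form in none. Of the 5 members with a window in the table (the others being VCAN and CEBPA, with no match to any of the 4 forms), 2 held GAGGAA, against 27.9% of 35116 promoter windows, 2 held TTGCNNAA, against 10.5%, 0 held TGTGGT, against 13.1%, and 3 held AACNGNC, against 32.2%. No overlap between matches of different forms occurred. A match describes letters only and says nothing of binding in these cells.

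The B lineage character of both lines was seen in the core values. CD79A, a signalling chain of the B cell receptor, lay at 11.67 ± 0.078 log2 under JQ1 and 12.31 ± 0.055 under DMSO in MUTZ-5, and at 12.24 ± 0.033 and 12.82 ± 0.036 in the same order in MHH-CALL4 (mean ± SD, n = 3). CD79A was thus lower under JQ1 by 0.64 in MUTZ-5 (adjusted p = 1.7e-05) and 0.57 in MHH-CALL4 (adjusted p = 3.1e-05) (limma). PAX5 lay between 11.95 and 12.17 in the 4 group means and was not called in either line. EBF1 lay between 12.70 and 13.14. It was lower under JQ1 by 0.45 in MHH-CALL4 (adjusted p = 5.3e-04) and differed by -0.13 in MUTZ-5 (adjusted p = 0.285) (limma). MYC, a growth-promoting transcription factor gene known to respond to BET inhibitors, was lower by 1.32 log2 in MUTZ-5 (adjusted p = 5.3e-08) and by 2.05 in MHH-CALL4 (adjusted p = 8.6e-10) (limma). The files give no detection calls. As a guide to the low end of the scale, the 225 genes of olfactory receptors, which blood cells are not expected to use, had a median of 5.87 and a 95th percentile of 7.50, although the background of a row depends on its probes and levels of different genes cannot be compared. Of the 12 arrays, replicate 3 of MHH-CALL4 with JQ1 and replicate 3 of MUTZ-5 with DMSO lay farthest from their groups, with 13.5% and 17.0% of the squared deviations of all genes, and results without them are given in the closing section.

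MPO was the member with the largest difference in MHH-CALL4. In MUTZ-5 it had 7.76, 7.62 and 7.76 log2 under JQ1, against 8.21, 8.19 and 8.17 under DMSO. In MHH-CALL4 it had 7.81, 8.07 and 8.25 under JQ1, against 10.46, 10.56 and 10.51 under DMSO. Every JQ1 array was below every DMSO array of its line, and the 3 MHH-CALL4 arrays with DMSO stood apart from the other 9. The difference, JQ1 minus DMSO, was -0.48 log2 (SE 0.097, 1.39-fold lower) in MUTZ-5 and -2.47 (SE 0.097, 5.54-fold lower) in MHH-CALL4, the 8th lowest among 14232 genes there. With the extended summaries, made from the same scans over more probe sets, these differences were -0.40 and -1.91. Under JQ1 the MHH-CALL4 arrays overlapped the MUTZ-5 arrays with DMSO, while all of them were above the MUTZ-5 arrays with JQ1. In bulk RNA, fewer cells with the transcript and less of it in each cell cannot be told apart.

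CTSG, a chymotrypsin-like protease of the same granule, followed MPO in MHH-CALL4. In MUTZ-5 it had 6.90, 6.84 and 6.77 log2 under JQ1, against 7.03, 6.91 and 6.66 under DMSO, which overlap. In MHH-CALL4 it had 7.06, 7.11 and 7.17 under JQ1, against 8.27, 8.48 and 8.64 under DMSO, with the groups apart. The difference was -0.03 log2 (SE 0.11) in MUTZ-5 and -1.35 (SE 0.11, 2.55-fold lower) in MHH-CALL4, and -0.92 there with the extended summaries. All groups but MHH-CALL4 with DMSO lay inside the range of the olfactory receptor rows, where log2 differences of RMA values understate folds.

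LYZ, like CTSG, differed in MHH-CALL4 and overlapped between treatments in MUTZ-5, at a low level throughout. In MUTZ-5 it had 5.95, 5.71 and 5.66 log2 under JQ1, against 5.76, 5.42 and 5.54 under DMSO. In MHH-CALL4 it had 5.79, 5.82 and 5.80 under JQ1, against 6.50, 6.82 and 6.57 under DMSO. The MHH-CALL4 arrays with DMSO were the highest of the 12, and the other 9 formed 1 overlapping range. The difference was 0.20 log2 (SE 0.11) in MUTZ-5 and -0.83 (SE 0.11, 1.78-fold lower) in MHH-CALL4, where the group mean under DMSO was above 75.7% of the olfactory receptor values and the mean under JQ1 above 48.4% of them.

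VCAN had the opposite line preference. In MUTZ-5 it had 9.70, 9.59 and 9.28 log2 under JQ1, against 11.02, 10.97 and 11.32 under DMSO. In MHH-CALL4 it had 6.45, 6.21 and 6.19 under JQ1, against 7.30, 7.05 and 7.04 under DMSO. The 4 groups did not overlap, and both MUTZ-5 groups were above both MHH-CALL4 groups. The difference was -1.58 log2 (SE 0.13, 2.99-fold lower) in MUTZ-5, the 27th lowest of all genes in that line, and -0.85 (SE 0.13, 1.80-fold lower) in MHH-CALL4. With the extended summaries it was -1.51 in MUTZ-5 and -0.46 in MHH-CALL4, where all 6 arrays lay at levels seen for olfactory receptors.

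**Figure D1:**
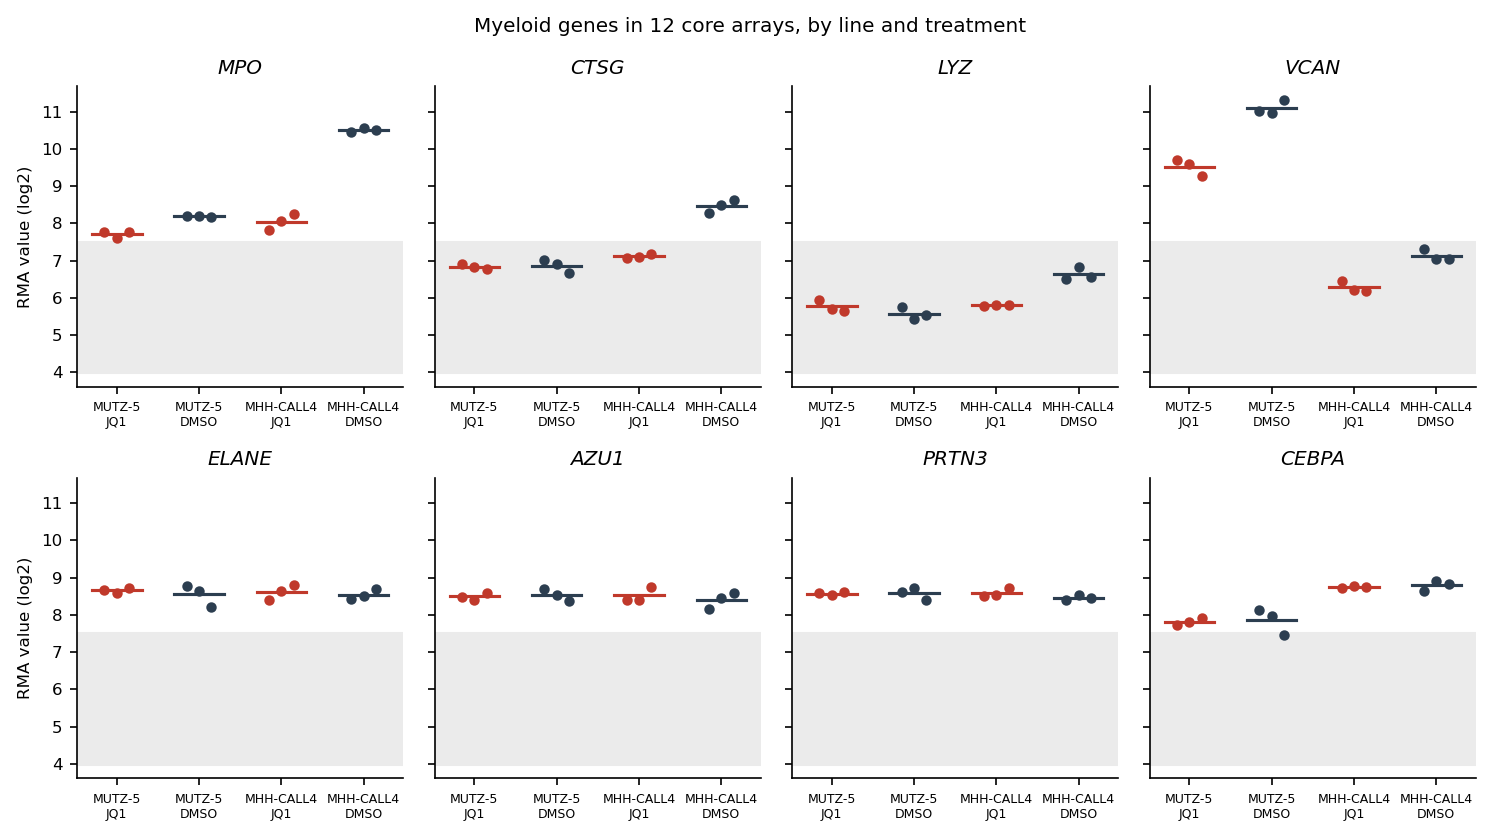
RMA values (log2, vertical axis) of the 8 genes in each array, by line and treatment, with a point per array and a bar at the mean of 3. The grey band spans the 5th to 95th percentile (3.98 to 7.50) of 225 olfactory receptor genes. MPO, CTSG and LYZ stand highest in MHH-CALL4 with DMSO, VCAN in MUTZ-5 with DMSO, and ELANE, AZU1 and PRTN3 lie at one level in all groups.

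The neighbouring trio ELANE, PRTN3 and AZU1, which sit side by side in the genome in the order AZU1, PRTN3, ELANE, overlapped in all 4 groups. ELANE had 8.68, 8.59 and 8.72 log2 under JQ1, against 8.78, 8.65 and 8.22 under DMSO in MUTZ-5. It had 8.41, 8.64 and 8.79 under JQ1, against 8.42, 8.50 and 8.69 under DMSO in MHH-CALL4. These groups overlap throughout, with differences of 0.12 (SE 0.13) in MUTZ-5 and 0.08 (SE 0.13) in MHH-CALL4. PRTN3 ranged from 8.39 to 8.73 over the 12 arrays, with differences of -0.0045 (SE 0.090) in MUTZ-5 and 0.13 (SE 0.090) in MHH-CALL4. AZU1 ranged from 8.16 to 8.76, with differences of -0.04 (SE 0.13) and 0.11 (SE 0.13) in the same order. Their values lie above the 95th percentile of the olfactory receptor rows in every array, but a flat value without a detection call does not show whether the RNA was present. For these 3 genes, and for CEBPA, the description of the set as lost with JQ1 did not hold in either line. For CTSG and LYZ it did not hold in MUTZ-5. VCAN, CEBPA and CD33 are also no granule proteins.

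CEBPA, the transcription factor of the set, parted the lines and not the treatments. In MUTZ-5 it had 7.72, 7.82 and 7.91 log2 under JQ1, against 8.12, 7.96 and 7.47 under DMSO. In MHH-CALL4 it had 8.73, 8.77 and 8.74 under JQ1, against 8.65, 8.91 and 8.83 under DMSO. All 6 MUTZ-5 arrays were below all 6 MHH-CALL4 arrays, and within each line the treatments overlapped. The difference with JQ1 was -0.03 (SE 0.13) in MUTZ-5 and -0.05 (SE 0.13) in MHH-CALL4. MUTZ-5 DMSO replicate 3 was the lowest of the 12 arrays for CEBPA, ELANE, PRTN3 and CTSG, and MHH-CALL4 JQ1 replicate 3 was the highest for ELANE and AZU1.

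In MUTZ-5, 2 of 8 members (MPO and VCAN) were called lower under JQ1 at an adjusted p under 0.05 and 0 higher, where 13.0% of all genes were called lower and 9.06% higher. In MHH-CALL4, 4 of 8 (MPO, CTSG, LYZ and VCAN) were called lower and 0 higher, where 17.5% of all genes were lower and 11.0% higher. In the same genes all 3 JQ1 arrays lay below all 3 DMSO arrays, as in 18.7% of all genes in MUTZ-5 and 24.1% in MHH-CALL4. A called fall of at least 2-fold was found in 1 member in MUTZ-5, against 1.22% of all genes, and in 2 members in MHH-CALL4, against 1.59%. The members' median difference was -0.03 log2 in MUTZ-5 and -0.44 in MHH-CALL4, beside 0.008 and 0.007 over all genes in the same order. Because the members were picked for this contrast, nothing is read from these counts.

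**Figure D2:**
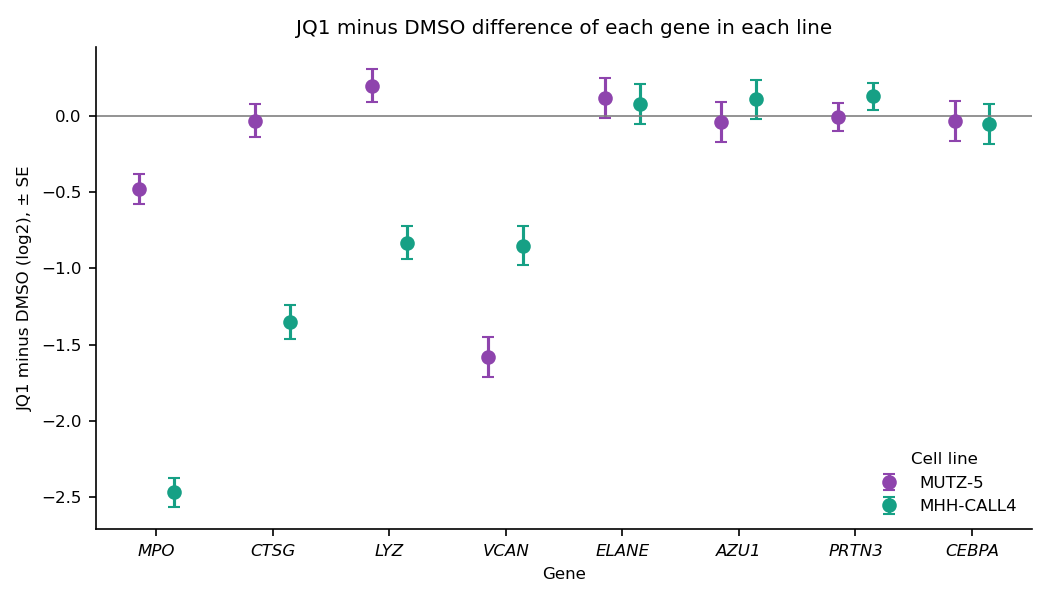
Difference between JQ1 and DMSO (log2, vertical axis) of each gene, with a point for MUTZ-5 on the left and MHH-CALL4 on the right and bars of 1 SE from the fit to 12 arrays. MPO, CTSG and LYZ were lower mainly in MHH-CALL4 (-2.47, -1.35 and -0.83), VCAN more so in MUTZ-5 (-1.58), and ELANE, AZU1, PRTN3 and CEBPA lie within 0.13 log2 of 0.

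The gap between the lines was narrower under JQ1 than under DMSO for MPO, CTSG, LYZ and VCAN, and within 0.02 log2 of it for CEBPA. Under DMSO, MPO was 4.99-fold lower in MUTZ-5 than in MHH-CALL4 (-2.32 log2, SE 0.097), CTSG 3.03-fold lower (-1.60) and LYZ 2.08-fold lower (-1.05). Under JQ1 these gaps were -0.33, -0.28 and -0.03 log2. VCAN was 15.7-fold higher in MUTZ-5 under DMSO (3.97 log2, SE 0.13) and 9.45-fold higher under JQ1. CEBPA was 1.93-fold lower in MUTZ-5 under DMSO and 1.90-fold lower under JQ1. These 5 genes were called between the lines under DMSO, as were 23.4% of all genes. The effect in MUTZ-5 minus that in MHH-CALL4 was 1.99 log2 for MPO (SE 0.14), 1.32 for CTSG (SE 0.15), 1.03 for LYZ (SE 0.15) and -0.73 for VCAN (SE 0.18). The first 3 were called, against 1.53% of all genes, and the choice of members rested on the same values.

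Correlations among the members are given over the 12 arrays, which share lines and treatments. MPO and CTSG had a Pearson r of 0.97, MPO and LYZ 0.91, and CTSG and LYZ 0.95. ELANE, AZU1 and PRTN3 had r between 0.69 and 0.76 with each other and between -0.45 and -0.06 with MPO, CTSG and LYZ. VCAN had -0.40 with MPO and -0.90 with CEBPA. CEBPA had 0.60 with MPO, 0.72 with CTSG and 0.65 with LYZ. Among all other genes, those most like MPO were the organic anion transporter SLCO2B1 (r = 0.999), PSTPIP2 (0.989), an adaptor of the cytoskeleton, and the cytokine gene IL1B (0.988). SLCO2B1 had means of 7.44 under JQ1 and 7.84 under DMSO in MUTZ-5, and 7.70 and 9.66 in the same order in MHH-CALL4. Those most like CTSG were CST7 (0.993), an inhibitor of cathepsins in leukocytes, GDPD4 (0.983) and C1QTNF4 (0.980). LYZ was most like SLC27A2 (0.959), MPP1 (0.953) and CTSG, and VCAN most like NCKAP5 (0.996), SCN4A (0.993) and PTPN18 (0.992). The genes most like the flat members were themselves nearly flat, with PAPLN (0.961) for ELANE, TPGS1 (0.932) for AZU1 and TJP3 (0.969) for PRTN3, and for CEBPA it was MMP25 (0.987), the gene of a leukocyte membrane metalloprotease.

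Genes beside the members were examined because position had no part in the choice. Of 36 neighbouring protein-coding genes (the 3 nearest on each side in RefSeq) 29 were measured, with 2 of them beside CTSG. In MUTZ-5, 3 were called lower, 1 higher and 25 did not pass, and in MHH-CALL4, 7 were lower, 1 higher and 21 did not pass, beside 13.0% lower and 9.06% higher among all genes in MUTZ-5 and 17.5% lower and 11.0% higher in MHH-CALL4. LPO, the lactoperoxidase gene adjoining MPO, differed by -0.03 in MUTZ-5 (adjusted p = 0.92) and by -0.10 in MHH-CALL4 (adjusted p = 0.48). MKS1, farther along on the side of LPO, was lower by 0.39 in MUTZ-5 (adjusted p = 0.00205) and 0.58 in MHH-CALL4 (adjusted p = 7.2e-05). TSPOAP1 on the other side of MPO was lower by 0.51 in MHH-CALL4 (adjusted p = 2.2e-04), with 0.05 in MUTZ-5 (adjusted p = 0.754). SUPT4H1 and RNF43, farther along on that side, were not called in either line. CMA1, the mast cell chymase gene next to CTSG, differed by -0.08 and 0.22 (adjusted p = 0.851 and 0.399) in MUTZ-5 and MHH-CALL4. Beside LYZ, YEATS4 was lower in MHH-CALL4 (-0.25, adjusted p = 0.0441) and not called in MUTZ-5 (-0.22, adjusted p = 0.0875). MDM2 and CCT2, farther from LYZ, were lower in MHH-CALL4 (-0.5 and -0.44, adjusted p = 2.0e-04 and 3.7e-04). In MUTZ-5 CCT2 was lower (-0.34, adjusted p = 0.00338) and MDM2 was not called (-0.05, adjusted p = 0.744). CPSF6 and CPM, also near LYZ, were not called in either line. XRCC4, a DNA repair factor beside VCAN, was lower by 0.52 in MUTZ-5 (adjusted p = 0.0209) and 0.87 in MHH-CALL4 (adjusted p = 5.4e-04). HAPLN1, the link protein gene on the other side, differed by 0.02 and 0.15 in the same order (adjusted p = 0.942 and 0.411). The group means of LPO (7.31 to 7.42), CMA1 (4.80 to 5.16), HAPLN1 (5.48 to 5.69) and STXBP6, also beside CTSG (6.70 to 6.79), lay below 7.50. That is the 95th percentile of the olfactory receptor rows, and at such levels a fall may not show. Around the ELANE trio PLPPR3, PTBP1, MISP, CFD, MED16 and R3HDM4 all missed the threshold in both lines. CFD, which encodes complement factor D, a serine protease also made by myeloid cells, differed by -0.07 in MUTZ-5 and -0.13 in MHH-CALL4. Beside CEBPA, its relative CEBPG was lower by 0.34 in MHH-CALL4 (adjusted p = 0.00522) and differed by -0.21 in MUTZ-5 (adjusted p = 0.0749), and the peptidase gene PEPD was higher by 0.45 in MUTZ-5 (adjusted p = 0.00101) and 0.37 in MHH-CALL4 (adjusted p = 0.00386).

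**Figure D3:**
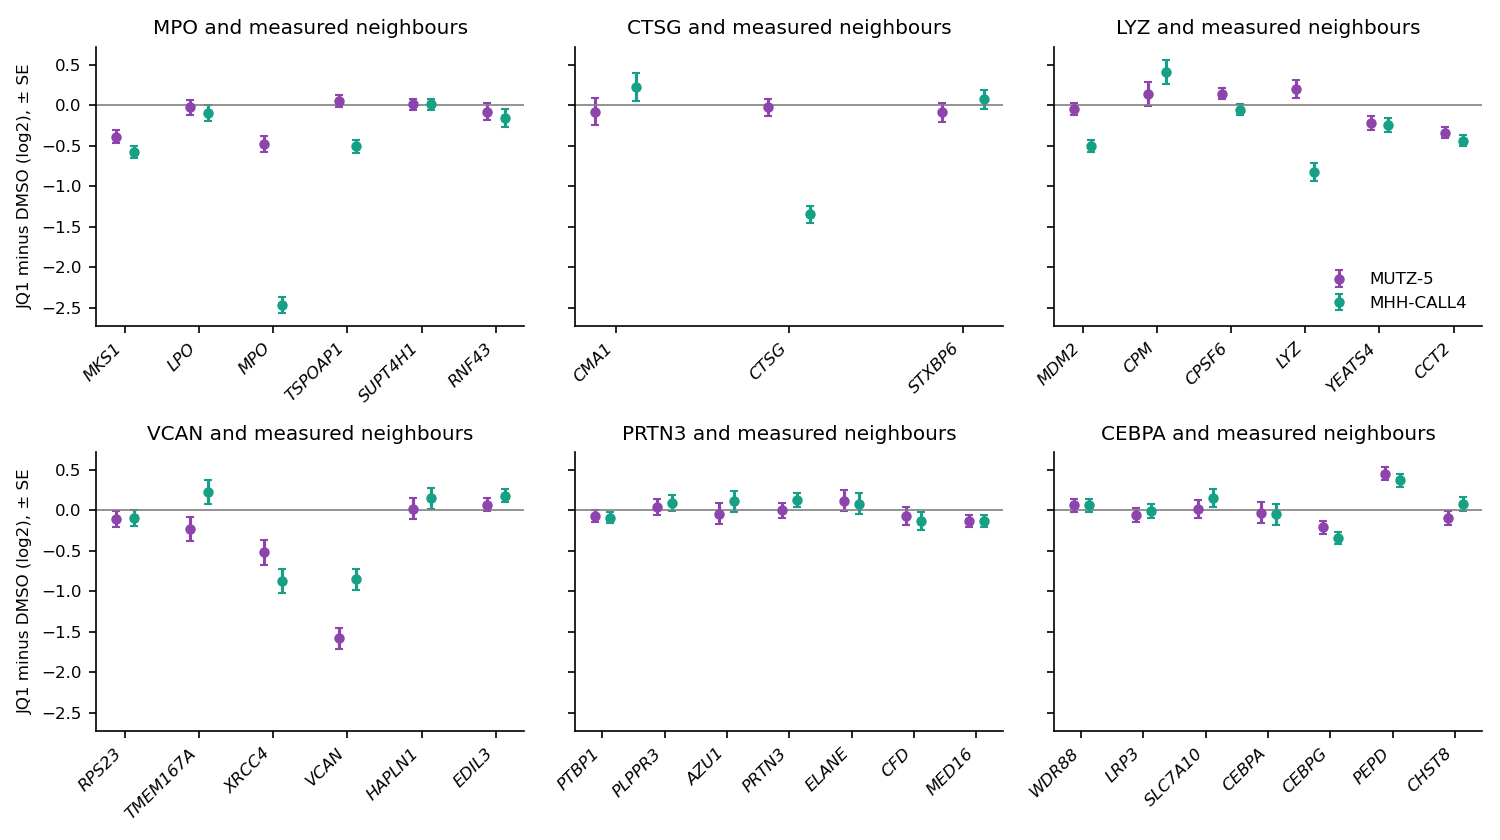
JQ1 minus DMSO difference (log2, vertical axis, with bars of 1 SE) of 6 members and their measured neighbours in genome order, MUTZ-5 left and MHH-CALL4 right of each tick. In MHH-CALL4 MPO and CTSG lie below neighbours that differed by 0.58 log2 or less in size, and all genes around PRTN3 lie near 0. The measured neighbours of CTSG, CMA1 and STXBP6, lie in the range of the olfactory receptor rows, where a fall may not show.

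The counts of the lists that follow stand beside the same shares of all genes, 13.0% lower and 9.06% higher in MUTZ-5 and 17.5% lower and 11.0% higher in MHH-CALL4. Of 14 other measured genes of azurophil granules and granule maturation, 4 were called lower, 0 higher and 10 did not pass the test in MUTZ-5, and the same counts in MHH-CALL4 (median -0.11 and -0.08 log2). PLAC8, a small protein of myeloid and lymphoid cells, had a mean of 10.64 ± 0.11 under JQ1 and 11.98 ± 0.23 under DMSO in MUTZ-5, a 2.53-fold fall (adjusted p = 2.6e-06). In MHH-CALL4 PLAC8 had 8.84 ± 0.16 under JQ1 and 11.12 ± 0.074 under DMSO, a 4.85-fold fall (adjusted p = 1.7e-08), and with the extended summaries the log2 difference there was -1.52. CST7 fell 3.16-fold in MHH-CALL4 (adjusted p = 1.0e-06) and differed by -0.03 in MUTZ-5 (adjusted p = 0.927). With the extended summaries the CST7 difference in MHH-CALL4 was -0.68 log2, against -1.66. SRGN, the serglycin core protein on which granule contents are packed, fell by 0.35 log2 in MUTZ-5 and 0.48 in MHH-CALL4 (adjusted p = 0.00236 and 1.7e-04). CD63, a membrane protein of these granules and of lysosomes, fell by 0.36 in MUTZ-5 and 0.29 in MHH-CALL4 (adjusted p = 0.00231 and 0.00775). SERPINB1, an inhibitor of neutrophil proteases, fell by 0.63 in MUTZ-5 (adjusted p = 0.0164), a call lost with the extended summaries (-0.26, adjusted p = 0.145) and without MUTZ-5 DMSO replicate 3 (adjusted p = 0.0668) or MUTZ-5 JQ1 replicate 3 (adjusted p = 0.0722). CTSC, which encodes the peptidase that activates the granule proteases, lay at group means of 5.55 to 5.66 and was not called in either line.

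Genes of the later, specific and gelatinase granules gave 3 of 18 lower and 0 higher in MUTZ-5, and 3 lower and 1 higher in MHH-CALL4 (median 0.01 and 0.02). Those lower in both lines were CYBB and NCF4, oxidase subunits that B cells also express, and OLFM4, a glycoprotein of specific granules. CYBB had 7.14 ± 0.063 under JQ1 and 8.71 ± 0.24 under DMSO in MUTZ-5 (2.95-fold lower, adjusted p = 8.6e-07), and 6.93 ± 0.20 and 7.85 ± 0.055 in the same order in MHH-CALL4 (1.90-fold lower, adjusted p = 6.1e-05). NCF4 fell 1.98-fold in MUTZ-5 and 1.81-fold in MHH-CALL4 (adjusted p = 6.7e-07 and 1.8e-06). OLFM4 had 6.31 ± 0.044 under JQ1 and 7.34 ± 0.22 under DMSO in MUTZ-5 (2.05-fold lower, adjusted p = 5.2e-06). In MHH-CALL4 OLFM4 fell by 0.34 log2 (adjusted p = 0.0175). This call did not hold when JQ1 replicate 2 of that line (adjusted p = 0.0596) or its DMSO replicate 2 (adjusted p = 0.0638) was left out. CHI3L1, a chitinase-like protein of specific granules, was higher by 0.35 in MHH-CALL4 (adjusted p = 0.0165), a call lost without DMSO replicate 2 (adjusted p = 0.0743) or JQ1 replicate 3 (adjusted p = 0.0668). Its means there, 7.01 under JQ1 and 6.65 under DMSO, lay in the range of the olfactory receptor rows. LTF, LCN2, MMP8 and CEACAM8, of the same list and picked after their values were seen, differed by 0.11 log2 or less in size and were not called. Of 7 measured serine proteases of the granzyme and chymase type 0 were called in MUTZ-5 by limma (also 0 at an unadjusted p under 0.05) and 1 lower in MHH-CALL4, namely PRSS57, a neutrophil granule protease that fell by 0.42 (adjusted p = 0.0341). GZMK and GZMM, granzymes of T and NK cells, differed by -0.24 and -0.10 in MUTZ-5 (adjusted p = 0.279 and 0.729). The PRSS57 call was lost in 6 of the alternatives, among them without MHH-CALL4 DMSO replicate 2 (adjusted p = 0.15).

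Of 21 myeloid receptors and surface proteins 1 was lower and 0 higher in MUTZ-5, and 3 lower and 2 higher in MHH-CALL4. ANPEP, the aminopeptidase CD13, had 8.51 ± 0.037 under JQ1 and 9.86 ± 0.031 under DMSO in MHH-CALL4 (2.54-fold lower, adjusted p = 1.4e-07) and differed by -0.11 in MUTZ-5 (adjusted p = 0.451). CD300LF, an inhibitory receptor of myeloid cells, fell 1.95-fold in MHH-CALL4 (adjusted p = 2.4e-05) and differed by -0.02 in MUTZ-5 (adjusted p = 0.951). The 2 that were higher in MHH-CALL4, CSF3R, the G-CSF receptor (0.34, adjusted p = 0.0254), and TREM1, an activating receptor (0.33, adjusted p = 0.0418), lost their calls in several alternatives, such as without DMSO replicate 2 (adjusted p = 0.107 and 0.0926). Their means under JQ1 and DMSO there, 7.49 and 7.15 for CSF3R and 5.88 and 5.55 for TREM1, lay in the range of the olfactory receptor rows. CSF2RB, the shared receptor chain for GM-CSF and interleukin 3, fell by 0.43 in MUTZ-5 (adjusted p = 5.4e-04). Its effect in MUTZ-5 minus that in MHH-CALL4 was -0.26, not called (limma, adjusted p = 0.321). Of 22 monocyte and macrophage genes 3 were lower and 2 higher in MUTZ-5, and 5 lower and 2 higher in MHH-CALL4 (median 0.06 and 0.04). IL1B, the gene of an inflammatory cytokine, had 7.29 ± 0.064 under JQ1 and 9.96 ± 0.065 under DMSO in MHH-CALL4 (6.38-fold lower, adjusted p = 6.5e-09) and differed by -0.34 in MUTZ-5 (adjusted p = 0.052). Its means in MUTZ-5, 6.89 under JQ1 and 7.23 under DMSO, lay in the range of the olfactory receptor rows. With the extended summaries the IL1B difference in MHH-CALL4 was -1.78, against -2.67. THBS1, the matrix protein thrombospondin 1, fell 2.56-fold in MUTZ-5 and 3.49-fold in MHH-CALL4 (adjusted p = 1.4e-07 and 1.1e-08), and its MUTZ-5 difference was -0.57 with the extended summaries, against -1.36. CTSS, a lysosomal cathepsin, fell by 0.56 in MUTZ-5 and 0.75 in MHH-CALL4 (adjusted p = 0.00281 and 2.4e-04). In MUTZ-5 AIF1 fell by 0.63 (adjusted p = 0.00134), and PSAP, a lysosomal protein precursor, was higher by 0.34 (adjusted p = 0.00368). The effect in MUTZ-5 minus that in MHH-CALL4 was -0.01 for AIF1 and 0.14 for PSAP, neither called (limma, adjusted p = 0.996 and 0.714). TLR4, the endotoxin receptor, fell 1.68-fold in MHH-CALL4 (adjusted p = 1.3e-04) and differed by -0.17 in MUTZ-5 (adjusted p = 0.312). CD14 had 7.67 under JQ1 and 7.63 under DMSO in MUTZ-5 and 7.84 and 7.81 in MHH-CALL4, and S100A8 had 6.23 and 6.34, and 6.40 and 6.15, in the same order. Averaged over the 22 genes, the level of each array ran from 7.09 to 7.25 under JQ1 and 7.16 to 7.24 under DMSO in MUTZ-5, and from 7.27 to 7.38 under JQ1 and 7.49 to 7.57 under DMSO in MHH-CALL4. The average in MHH-CALL4 includes the large falls of IL1B (-2.67) and THBS1 (-1.80), while the list's median difference there was 0.04. Among the relatives of CD33, sialic acid receptors of the same family, SIGLEC15 and CD22 were lower in both lines and the other 5 of 7 were not called. CD22 is also counted below among the markers of B cell precursors.

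Among 27 myeloid transcription factors 8 were lower and 2 higher in MUTZ-5, and 11 lower and 4 higher in MHH-CALL4 (median -0.06 and -0.08). JUN, a subunit of the AP-1 factor, was 1.79-fold higher in MHH-CALL4, with 8.27 ± 0.12 under JQ1 and 7.43 ± 0.076 under DMSO (adjusted p = 6.8e-06). TRIB1, a pseudokinase that controls C/EBP protein, fell 1.82-fold in MHH-CALL4 (adjusted p = 2.0e-05), and its relative TRIB2 fell 1.40-fold in MUTZ-5 (adjusted p = 0.00136). The effect in MUTZ-5 minus that in MHH-CALL4 was -0.49 log2 for JUN, 0.42 for TRIB1 and -0.28 for TRIB2. None of these was called (limma, adjusted p = 0.0615, 0.213 and 0.454). RUNX2 fell by 1.03 log2 in MUTZ-5 (adjusted p = 1.3e-04), and its difference was -0.32 with the extended summaries. SPI1, the gene of PU.1, had 9.18 ± 0.085 under JQ1 and 9.95 ± 0.036 under DMSO in MUTZ-5 (1.70-fold lower, adjusted p = 4.7e-06). In MHH-CALL4 SPI1 had 9.84 ± 0.023 under JQ1 and 10.35 ± 0.072 under DMSO (-0.51, adjusted p = 1.1e-04). The MUTZ-5 call was lost with the extended summaries (-0.19, adjusted p = 0.153). RUNX1 fell by 0.32 log2 in MUTZ-5 (adjusted p = 0.00712) and 0.72 in MHH-CALL4 (adjusted p = 9.3e-06), and ERG, an ETS factor of blood progenitors, fell by 0.52 in MUTZ-5 and fell by 1.36 in MHH-CALL4 (adjusted p = 8.2e-05 and 1.6e-08). GFI1, a repressor of myeloid and lymphoid genes, fell by 0.62 in MHH-CALL4 (adjusted p = 2.0e-04) and differed by -0.19 in MUTZ-5 (adjusted p = 0.198), while MYB fell by 0.47 in MHH-CALL4 (adjusted p = 0.00209) and differed by 0.06 in MUTZ-5 (adjusted p = 0.77). CEBPB, a relative of CEBPA, fell by 0.29 and 0.27 in MUTZ-5 and MHH-CALL4 (adjusted p = 0.0211 and 0.0253), and CEBPE, which acts in later granulocytes, differed by -0.01 and 0.35 (adjusted p = 0.982 and 0.053).

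Of 23 partners of versican 2 were lower and 0 higher in MUTZ-5, and 2 lower and 2 higher in MHH-CALL4 (median 0.02 and 0.04). CD44, a receptor for the hyaluronan that versican binds, fell by 0.37 log2 in MUTZ-5 (adjusted p = 0.00422) and by 0.62 in MHH-CALL4 (adjusted p = 6.3e-05), and the chondroitin sulfotransferase gene CHST11 fell by 0.40 in MUTZ-5 (adjusted p = 0.0011) and by 0.22 in MHH-CALL4 (adjusted p = 0.0301), where the call was lost in several alternatives, such as without DMSO replicate 2 (adjusted p = 0.0899). The matrix genes FBN1 (0.44, adjusted p = 3.3e-04) and TNR (0.28, adjusted p = 0.0139) were higher in MHH-CALL4, TNR not without DMSO replicate 1 (adjusted p = 0.0515) or JQ1 replicate 1 (adjusted p = 0.0593), or with cyclic loess (adjusted p = 0.0991). Their means under JQ1 and DMSO there, 7.42 and 6.99 for FBN1 and 7.29 and 7.01 for TNR, lay in the range of the olfactory receptor rows. Of 18 markers of B cell precursors 10 were lower and 2 higher in MUTZ-5, and 9 lower and 0 higher in MHH-CALL4 (median -0.28 and -0.27). CD72 fell 2.84-fold in MUTZ-5 and 3.20-fold in MHH-CALL4, and VPREB1, a part of the surrogate light chain, fell 2.13-fold and 2.04-fold in the same order. VPREB3 fell 2.01-fold and CD34 1.94-fold in MUTZ-5, and MS4A1 fell 1.48-fold in MHH-CALL4. Averaged over these 18 genes, the level of each array ran from 11.32 to 11.36 under JQ1 and 11.64 to 11.76 under DMSO in MUTZ-5, and from 11.38 to 11.41 under JQ1 and 11.67 to 11.81 under DMSO in MHH-CALL4. Of 20 T and NK cell markers 4 were lower and 0 higher in MUTZ-5, and 4 lower and 1 higher in MHH-CALL4. The 4 that were lower were LCK, ZAP70, NKG7 and TBX21 in both lines, the TBX21 call in MUTZ-5 (-0.27, adjusted p = 0.0279) being lost in several alternatives, such as without DMSO replicate 1 (adjusted p = 0.144).

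Of 12 erythroid and megakaryocyte markers 0 were lower and 1 higher in MUTZ-5, namely ITGB3 (0.73, adjusted p = 6.4e-05), and 0 were called in MHH-CALL4 by limma, where 1, HBB, had an unadjusted p under 0.05. HBB differed by -0.37 there (adjusted p = 0.0831) and PPBP by 0.17 (adjusted p = 0.413). HBB was called lower with cyclic loess (adjusted p = 0.0133), with each line fitted alone (adjusted p = 0.0343), without MUTZ-5 DMSO replicate 3 (adjusted p = 0.0272) and without both arrays that stand apart (adjusted p = 0.0113). Of 12 stromal markers 1, PDGFRB, was lower in each line. The part of other cell types in the members' values was not tested.

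**Figure D4:**
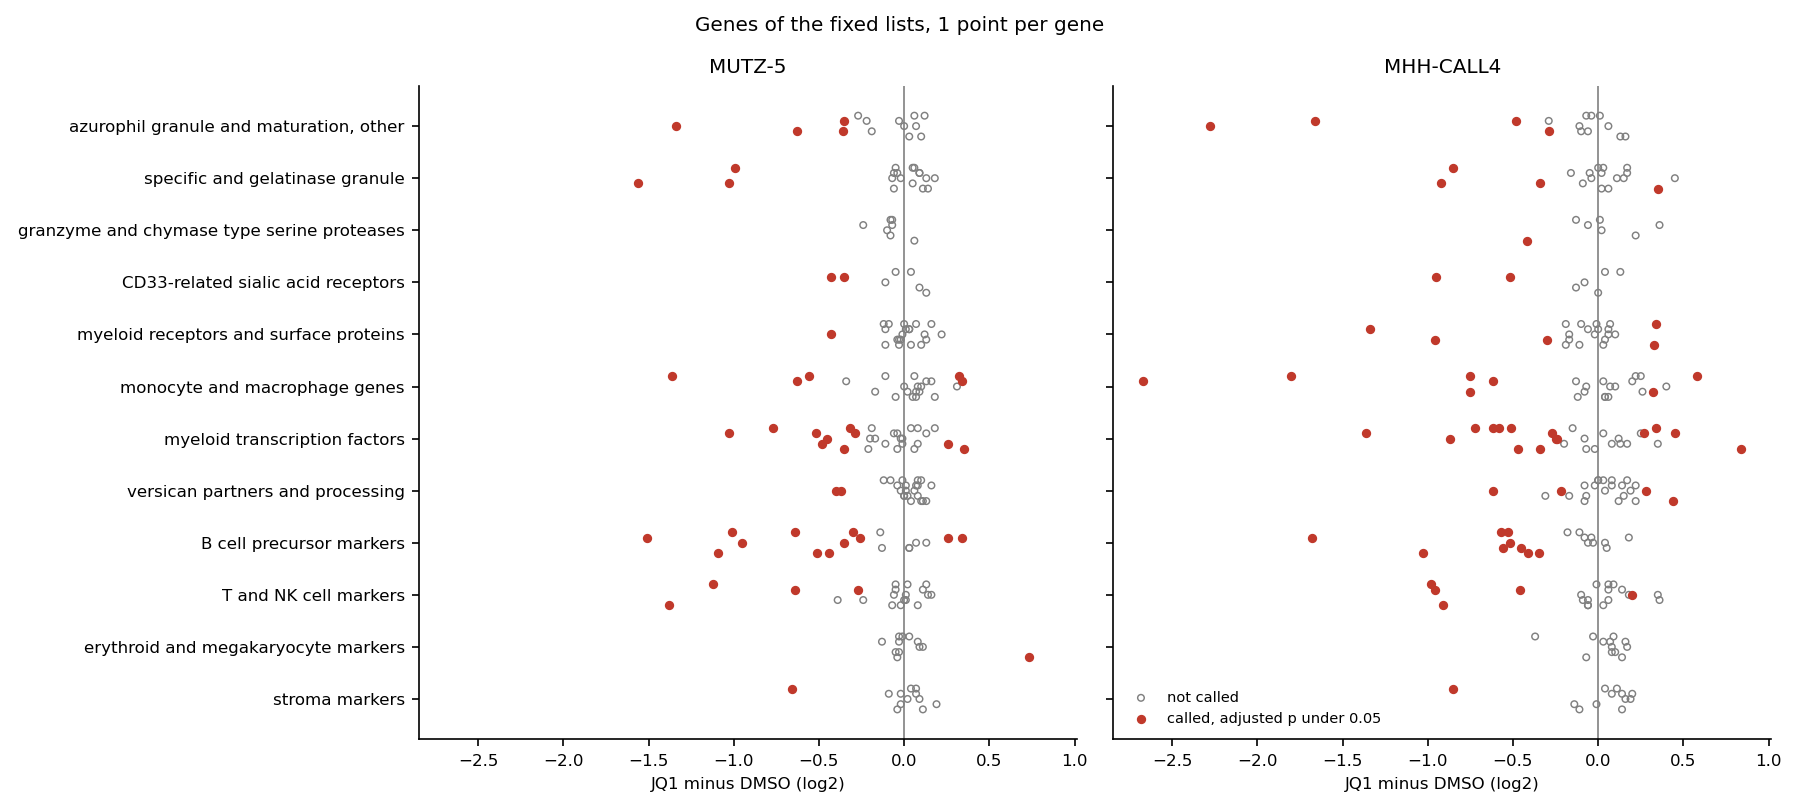
JQ1 minus DMSO difference (log2, horizontal axis) of every measured gene of the 12 fixed lists, with MUTZ-5 on the left, MHH-CALL4 on the right and 1 point per gene, in red where the adjusted p is under 0.05. Most points of the myeloid lists lie near 0, with IL1B (-2.67) and PLAC8 (-2.28) the lowest in MHH-CALL4.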

How the data were processed

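RNA of 12 samples was hybridised to Affymetrix exon arrays. The deposited values are log2 expression levels that the authors made with RMA in Affymetrix Expression Console, per the submitters' processing notes and design text (version and genome build not given in the sources used here), as 24 columns: a core and an extended summary of each array. Of 22011 core clusters 14432 had 1 gene symbol in the platform annotation, 2408 several, and 5171 were not listed in it. For 197 genes with several rows the one with the highest mean was used, which left 14232 genes. Array medians were 8.46 to 8.57. The number of arrays limits the precision.

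No further normalization and no filter was applied. One limma model with 4 group means (limma 3.58.1, R 4.3.3) gave the JQ1 effect in each line, their difference and the difference between lines, with Benjamini-Hochberg adjustment over all genes and a threshold of 0.05. The code was tested on simulated data. Alternatives were extended summaries, median centring, cyclic loess, a filter at the median level, averaged rows, a trended robust variance, single-line fits, a replicate block and leaving out each array. The members and lists were chosen with earlier results of these data known. Named were the members and, per list and line, up to 4 called genes with the largest change (or the 2 largest uncalled). The 3 genes most like MPO, CTSG, LYZ and VCAN were named, and the gene most like each other member. Some of the measured genes among the 3 nearest on each side were named (the rule as written asked for the 3 nearest measured). MYC, IL7R, CD79A, PAX5 and EBF1 were named as well. CTSC, LTF, LCN2, MMP8, CEACAM8, CD14, S100A8, GFI1, MYB, CEBPB and CEBPE were added after their values were seen. Site motifs are textbook short forms. CD33 was not analysed here.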

Additional observations from a re-analysis of the deposited data

Results flagged for a closer look

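For 12 genes of the fixed lists the JQ1 effect in MUTZ-5 differed from that in MHH-CALL4 by the interaction test of limma, given here as the effect in MUTZ-5 minus the effect in MHH-CALL4 on the log2 scale. It was 2.34 for IL1B (adjusted p = 6.2e-06), 1.63 for CST7 (adjusted p = 3.5e-04), 1.23 for ANPEP (adjusted p = 1.0e-04), 0.95 for CD300LF (adjusted p = 0.00626), 0.94 for PLAC8 (adjusted p = 0.00813), 0.83 for ERG (adjusted p = 3.4e-04) and 0.52 for SIGLEC15 (adjusted p = 0.039). These 7 genes were all lower by more in MHH-CALL4. ITGB3, an integrin of megakaryocytes, had 0.80 (adjusted p = 0.00531) and was higher under JQ1 in MUTZ-5. The value was -1.28 for RUNX2 (adjusted p = 0.004), -0.99 for CD34 (adjusted p = 0.0115), -0.90 for VPREB3 (adjusted p = 0.0397) and -0.69 for OLFM4 (adjusted p = 0.0175), which were lower by more in MUTZ-5. The PLAC8 call was lost with the extended summaries (0.44, adjusted p = 0.137), and those of OLFM4, SIGLEC15 and VPREB3 under several alternatives. IL1B had means of 6.89 under JQ1 and 7.23 under DMSO in MUTZ-5. OLFM4 had 6.31 and 7.34 in MUTZ-5 and 6.17 and 6.50 in MHH-CALL4, in the same order. These means lay below 7.50, the 95th percentile of the olfactory receptor rows, and at such levels a fall may not show.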

How the results depend on the processing

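Over all alternatives run, 0 called differences of the members and named list genes changed sign, while some that were not called did, and so did the members' median. MPO, CTSG, LYZ and VCAN were called lower in MHH-CALL4, and MPO and VCAN in MUTZ-5, in each alternative except the median level filter. The members were chosen for such a fall on the same arrays, so nothing is read from their staying called. The filter, at 8.52, drops CTSG, LYZ, VCAN, AZU1 and CEBPA and left 1 member, MPO, called lower in each line. It gave a members' median of 0.08 in MHH-CALL4, over MPO, ELANE and PRTN3 alone. With fewer genes tested it also gave 4 list genes called higher there, 3 in MUTZ-5 and 136 genes with a difference of effects. With the extended summaries the median was -0.28 in MHH-CALL4, and the cause was not tested. Median centring gave 19 list genes called higher in MHH-CALL4, against 12. Leaving out 1 array at a time, these counts ran from 6 to 16, and genes with a difference of effects from 157 to 360, against 218, the highest without MUTZ-5 DMSO replicate 3. Without that array and MHH-CALL4 JQ1 replicate 3, an alternative chosen after seeing the data, the members called lower were again 2 in MUTZ-5 and 4 in MHH-CALL4. The labels number the samples but state no pairing, so the main fit had no block. Correlations of the deviations of same-numbered samples were all below 0 in MUTZ-5 (-0.44 to -0.17) and all above 0 in MHH-CALL4 (0.07 to 0.30). They do not decide whether the samples of MHH-CALL4 were paired. With the replicate block 2804 genes were called in MUTZ-5, against 3138, and 3685 in MHH-CALL4, against 4057, the members called stayed 2 and 4 in number, and the PRSS57 call was lost (adjusted p = 0.0525).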
